A study of Mus musculus with 12 samples.

Results

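The comparison was 4E against OA in input RNA, the total mRNA of sorted CD4+ T cells, taken without polysome separation. Its members were the 3 libraries with the label 4E_input and the 3 with the label OA_input, which are 6 of the 12 RNA sequencing libraries of the series, and the 4652 of 26485 gene rows that held at least 10 counts in at least 3 of these 6 libraries. All 6 libraries came from C57BL/6 mice immunised with AOV alum and dosed by mouth each day for 7 days, with vehicle alone or with 4EGI-1 at 25 mg/kg, and their cells had been sorted as CD4+CD45+. The labels do not spell out OA or 4E. The authors' deposited table sets an arm named OAE against OA, so 4E was taken for the arm given 4EGI-1 and OA for the arm given vehicle. No label says whether a replicate was 1 animal or a pool, so the p-values speak only of variation among these samples, part or all of which may be technical. In such bulk RNA, fewer cells of a type and less RNA per cell cannot be told apart.

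Cap-dependent translation begins when eIF4E binds the mRNA cap and the scaffold eIF4G, which brings the helicase eIF4A and the ribosome. 4EGI-1 is a small molecule that interferes with the contact of eIF4E and eIF4G. In T cells, translation through eIF4E is controlled by the kinase mTOR and is linked to growth, division and the choice of helper fate. The input libraries measure RNA abundance and not translation.

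The 6 libraries held between 1006422 and 1895038 reads in genes. OA replicate 1 stood apart before any test. It was the deepest library, it had a TMM scaling factor of 2.24 against 0.738 to 1.02 in the other libraries, and 33.6% of its gene reads lay in small noncoding RNAs against 71% to 78.3% elsewhere. RN7SL1, the RNA scaffold of the signal recognition particle, alone took 23.3% of gene reads in OA replicate 1 and 58.9% to 66.6% in the other 5 libraries. OA replicate 3 lay close to the 4E libraries: its Spearman correlations with them across tested genes were 0.869 to 0.891, against 0.874 with OA replicate 2. Of the 12 T cell markers, 9 were tested, with a summed level of 535 to 781 CPM (counts-per-million after TMM scaling). CD3D was at 0 in all 6 libraries, and CD4 had 25, 0 and 4 counts in OA and 0 in each 4E library, so those defining genes were listed at or near 0. A row at 0 need not mean an absent RNA: 12 of the 88 ribosomal protein rows, RPS29 and RPL26 among them, and EIF4A1, the helicase of eIF4F, were also at 0 in all 6 libraries. The summed level of the B cell markers was 52.3 to 190 CPM.

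Input RNA of the 4E libraries held more small nuclear and nucleolar RNA than that of the OA libraries. It held less RNA of DNA replication, histone and CCT chaperonin genes. Collagen genes were below 0 in log2 change, but COL3A1 passed the filter only through OA. For COL1A1, OA replicate 1 lay next to the 4E libraries. Red cell genes were also below 0 in log2 change, with overlapping groups, and no single gene passed the test with all 6 libraries. edgeR's quasi-likelihood test with Benjamini-Hochberg adjustment called 0 of 4652 genes at an adjusted p under 0.05 (0% called), and the smallest adjusted p was 0.111. At an unadjusted p under 0.05, 209 genes (4.49%) were higher and 244 (5.25%) lower in 4E. The 3 values of 4E lay above all 3 of OA for 336 genes (7.22%) and below them for 362 (7.78%). Log2 changes, given as 4E minus OA throughout, were below 0 for 50.9% of genes and above 0 for 49.1%. These shares are the background against which the gene groups are read. TMM scaling sets the middle of the genes to 0 and so gives changes relative to the other genes: with library sizes alone the median log2 change of all genes shifted from -0.01 to -0.80 and 93.5% of genes were below 0.

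The count of calls depended on the tool, on single OA libraries and on the use of replicate numbers as a block, which gave 32 calls. DESeq2 called 12 genes (0.258%), and limma voom with sample weights called 2 (0.043%), the nucleolar RNA SNORD94 and the RNase P RNA RPPH1. Without OA replicate 1, edgeR called 14 genes (0.301%), 7 in each direction, and log2 changes were below 0 for 49.2% and above 0 for 50.8% of genes. Without OA replicate 3 it called 32 genes (0.688%), of which 28 were small noncoding RNAs, all higher in 4E. SNORD94, SCARNA8, SNORA21, SNORA29 and ZBTB16 were called by DESeq2 and in both of those edgeR fits.

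**Figure D1:**
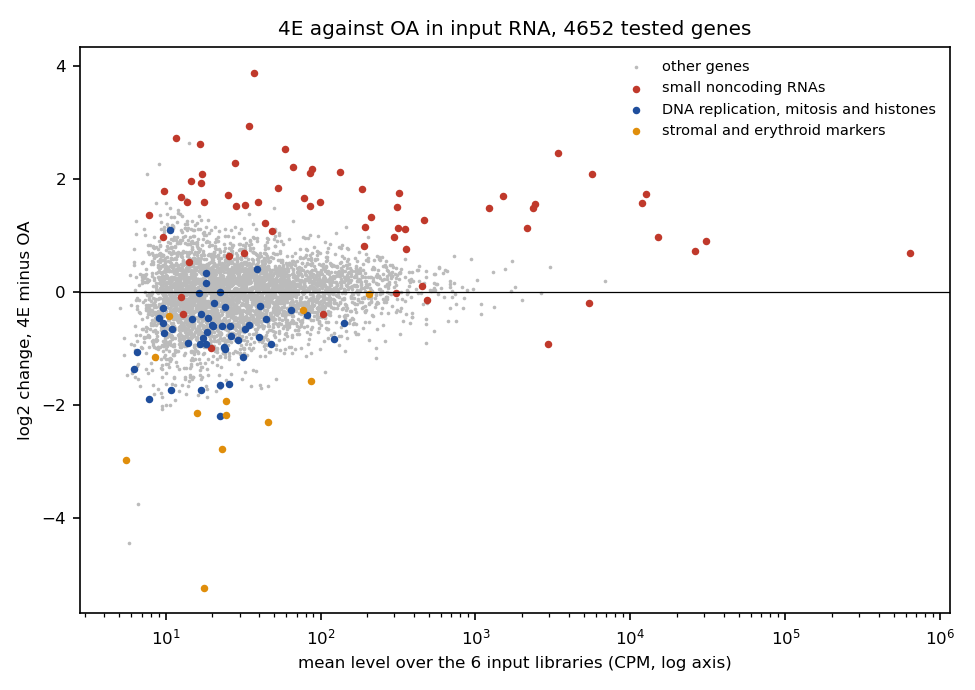
Log2 change (4E minus OA) against mean level over the 6 input libraries (CPM, log axis), 1 point per tested gene, with 3 groups of genes in colour. Of the 65 small noncoding RNAs 57 lie above 0, while the 6 stromal and 6 erythroid markers all lie below it. COL3A1 and FN1 among them passed the filter only through OA.

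Small nucleolar RNAs guide the chemical modification of ribosomal and spliceosomal RNA, and scaRNAs do so in Cajal bodies. Box C/D members guide methylation and H/ACA members guide pseudouridylation. Most are cut from introns of host genes and carry no poly(A) tail, while the labels describe a poly(A) selection. The mouse genes of the same name as 5 members are shown because the results on single small RNAs and on pairs with a host turn on them. SCARNA8 lies on chromosome 4 in an intron of Haus6, SNORA21 on chromosome 11 in Rpl23, SNORA28 on chromosome 12 in Eif5, SNORA23 on chromosome 7 in Ipo7, and SNORD67 on chromosome 2 in Ckap5. Sequences are GENCODE M21 transcripts of GRCm38 on their own strand, 5′ to 3′. Capitals mark the last ACA found within the last 6 bases of the first 4. In SNORA23 it overlaps an earlier ACA of that window, which is left unmarked, so the marked letters need not be the box. In SNORD67 capitals mark the box C letters TGATGA within the first 15 bases and the box D letters CTGA within the last 15.
SCARNA8: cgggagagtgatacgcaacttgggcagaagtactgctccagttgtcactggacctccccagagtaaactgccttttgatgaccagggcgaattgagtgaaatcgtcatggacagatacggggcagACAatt
SNORA21: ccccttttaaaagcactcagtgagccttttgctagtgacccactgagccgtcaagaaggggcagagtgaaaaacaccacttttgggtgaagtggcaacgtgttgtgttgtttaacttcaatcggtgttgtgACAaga
SNORA28: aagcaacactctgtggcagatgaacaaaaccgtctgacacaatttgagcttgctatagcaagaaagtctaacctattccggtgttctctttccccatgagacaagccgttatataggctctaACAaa
SNORA23: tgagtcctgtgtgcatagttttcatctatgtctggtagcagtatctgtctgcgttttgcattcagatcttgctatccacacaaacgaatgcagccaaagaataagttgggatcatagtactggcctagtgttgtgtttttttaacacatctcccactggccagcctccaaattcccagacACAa
SNORD67: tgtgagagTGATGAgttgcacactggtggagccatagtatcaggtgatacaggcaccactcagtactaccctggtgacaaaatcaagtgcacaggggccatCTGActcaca
In the same annotation, 92.5% of 40 SNORA transcripts carry such an ACA, and 62.9% of 97 SNORD transcripts carry both boxes in these windows. The letters are read on the transcript strand alone.

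Of the 65 small noncoding RNAs tested, 57 had a log2 change above 0, 48 did so with an unadjusted p under 0.05, and none was lower with such a p. The 3 values of 4E lay above all 3 of OA for 31 of them. The 51 snoRNAs and scaRNAs had a median log2 change of 1.54, against -0.01 over all genes tested, and 47 of them were above 0. That median was 1.14 without OA replicate 1, when 62 of the 65 small RNAs were above 0. The summed level of all listed snoRNA and scaRNA rows was 4796, 7231 and 14599 CPM in OA and 15917, 21302 and 26732 CPM in 4E. The highest OA library, replicate 3, thus came close to the lowest 4E library, and the groups did not overlap.

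SNORD94, a box C/D RNA, stood at 246, 224 and 352 CPM in OA and at 539, 697 and 739 CPM in 4E. Every 4E library lay above every OA library, and the log2 change was 1.27 (SE 0.24). Its edgeR adjusted p was 0.111 with all 6 libraries, 0.0036 without OA replicate 1 and 0.012 without OA replicate 3. SCARNA8 stood at 4.01, 9.05 and 13.1 CPM in OA and at 28, 54 and 98.1 CPM in 4E. Its lowest 4E value was above its highest OA value, and the log2 change was 2.94 (SE 0.52; edgeR adjusted p 0.111, and 0.011 without OA replicate 1). SNORA21 stood at 17.4, 16.3 and 64.4 CPM in OA and at 91.0, 107 and 229 CPM in 4E, a log2 change of 2.18 (SE 0.48). OA replicate 3 was the highest of the vehicle libraries for SNORA21 as for the summed level. SNORA46 had the largest log2 change of all genes tested, 3.88 (SE 0.71), from 1.89, 0.905 and 14.0 CPM in OA to 25.7, 64.1 and 116 CPM in 4E. SNORA46 could not pass the filter without the 4E libraries.

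The list of spliceosomal RNAs, which are parts of the splicing machinery, also holds RNU105B, the symbol of a small nucleolar RNA. Its 9 tested members, RNU105B included, had a median log2 change of 1.58. That median was 1.34 without OA replicate 1 and 1.05 without 4E replicate 3. With all libraries 6 members were above 0, RNU105B among them, and RNU2-2P (-0.92), RNU12 (-0.39) and RNU4ATAC (-0.09) were below it. Those 3 were highest in OA replicate 1, and all 9 were above 0 without it. RNU5B-1, a U5 RNA, stood at 174, 739 and 2220 CPM in OA and at 2800, 6543 and 7847 CPM in 4E. Its groups did not overlap, and its log2 change was 2.46 (SE 0.66), with an edgeR adjusted p of 0.344 with all libraries and 0.013 without OA replicate 1. RNU11, the U11 RNA of the minor spliceosome, stood at 59.1, 93.2 and 297 CPM in OA and at 340, 474 and 676 CPM in 4E. RPPH1, the RNA of RNase P, which trims transfer RNA precursors, went from 7353, 9974 and 13323 CPM in OA to 18372, 21104 and 20427 CPM in 4E, also without overlap. RN7SL1 was different: its 104242 CPM in OA replicate 1 lay far below the other 5 libraries, at 585077 to 888670 CPM, and its log2 change of 0.68 had an SE of 1.02. Near-identical copies of 7SL, U4 and U5 genes could have shared reads, so the split between copies is uncertain.

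The intron-encoded RNAs could be set beside their hosts. Of the 51 tested snoRNAs and scaRNAs, 27 had a mouse gene of the same name, and 15 of those lay in an intron of a host that was also tested. All 15 had a log2 change above 0 and above that of their host, with all libraries and also without OA replicate 1, whereas 4 of the 14 hosts were above 0. The median log2 change was 1.49 for the small RNAs and -0.31 for the hosts, and 1.14 and -0.15 without OA replicate 1. Of all 51 snoRNAs and scaRNAs, 47 were above 0, and the median of all genes tested was -0.01. How often a small RNA lay above genes other than its host was not counted. The pairs thus have no background and are not read as a result beyond that of the list. SNORA28, whose OA values were 3.77, 0 and 4.67 CPM, had a log2 change of 2.73 while its host EIF5, an initiation factor, had -0.30. SNORD67 had 2.62 while its host CKAP5, a microtubule polymerase, had -0.31. SCARNA10 had 0.98 while its host NCAPD2, a condensin subunit, had -1.15. The host of SNORA21, RPL23, had -1.09 with all libraries and 0.62 without OA replicate 1, so its direction rested on that library.

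**Figure D2:**
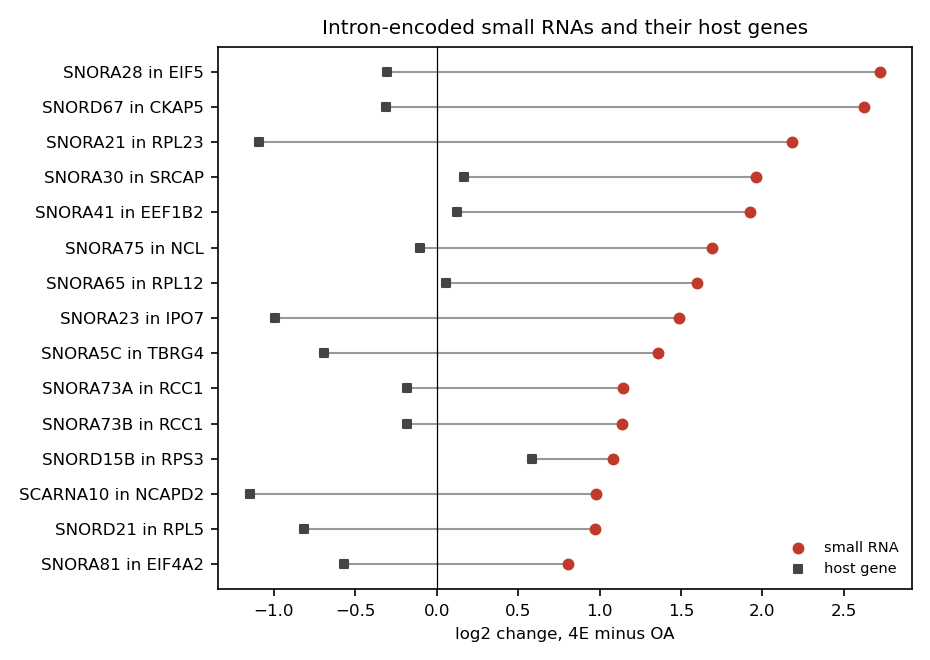
Log2 change (4E minus OA) of 15 intron-encoded small RNAs (circles) and of their host genes (squares), 1 line per pair. Each circle lies to the right of its square, with hosts between -1.15 and 0.58.

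Genes of DNA replication, by contrast, were mostly lower in 4E. Of 20 tested members 18 had a log2 change below 0, 6 of them with an unadjusted p under 0.05 and 6 without overlap of the groups, and the median was -0.69 (-0.70 without OA replicate 1). The summed level over all listed replication rows was 645, 740 and 640 CPM in OA and 427, 387 and 516 CPM in 4E. All 6 tested subunits of the MCM helicase, which unwinds DNA ahead of the fork, were below 0, from -0.48 for MCM2 to -1.64 for MCM5. MCM5 stood at 31.8, 39.8 and 45.7 CPM in OA and at 19.8, 2.51 and 14.5 CPM in 4E. Its groups did not overlap, but the 4E values were spread widely, and the log2 change of -1.64 (SE 0.49) had an edgeR adjusted p of 0.344. POLE, the catalytic subunit of leading-strand polymerase, had -1.73 (SE 0.62), RRM1, the large subunit of the enzyme that makes deoxynucleotides, had -0.86 (SE 0.35), and DNMT1, which copies DNA methylation after replication, had -0.98 (SE 0.43). LIG1 at 0.34 and SLBP, which binds histone mRNA, at 0.40 were the members above 0.

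Of 10 tested genes of mitosis 9 were below 0, with a median of -0.58 (-0.38 without OA replicate 1). TOP2A, the topoisomerase that untangles replicated chromosomes, stood at 42.7, 51.6 and 16.8 CPM in OA and at 8.16, 8.79 and 7.27 CPM in 4E. The 3 4E values were tight and the OA values were not, with replicate 3 the lowest. Each 4E library held under 10 counts of TOP2A, so this gene passed the filter only through the OA libraries. The log2 change was -2.20 (SE 0.48), and its adjusted p was 0.282 with edgeR, 0.0418 with DESeq2 and 0.0089 with edgeR without OA replicate 3. NCAPD2 stood at 43.8, 47.1 and 40.1 CPM in OA and at 22.2, 11.3 and 25.4 CPM in 4E, a log2 change of -1.15 (SE 0.35; edgeR adjusted p 0.347). MYBL2, a transcription factor of the late cell cycle, had -1.37.

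Replication-dependent histone genes package new DNA and are transcribed in S phase. Of 18 tested, 17 were below 0, 5 with an unadjusted p under 0.05, and the median was -0.63 (-0.82 without OA replicate 1). HIST3H2A, an H2A gene, stood at 135, 166 and 167 CPM in OA and at 75.8, 95.5 and 89.6 CPM in 4E. The groups lay well apart, with a log2 change of -0.84 (SE 0.23) and an edgeR adjusted p of 0.344, or 0.032 without OA replicate 1. HIST1H4L, an H4 gene, had -1.65 (SE 0.48), HIST1H1E, a linker histone, had -0.92 (SE 0.30), and HIST4H4 was the exception at 1.11. Histone genes of a family are near identical, so values of single members are uncertain, but the summed level over 73 histone rows was also apart, at 700.2 to 801 CPM in OA against 443 to 524 CPM in 4E. Most of these mRNAs end in a stem-loop in place of a poly(A) tail.

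Folate enzymes, which supply carbon units for nucleotide synthesis, had a median of -0.58 over 9 tested members (-0.42 without OA replicate 1, and -0.32 without 4E replicate 1), with 8 below 0. SHMT2, which opens the mitochondrial branch, had -1.29, MTHFD1L of the same branch had -0.93, and ATIC and PAICS of purine synthesis had -0.74 and -0.75.

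**Figure D3:**
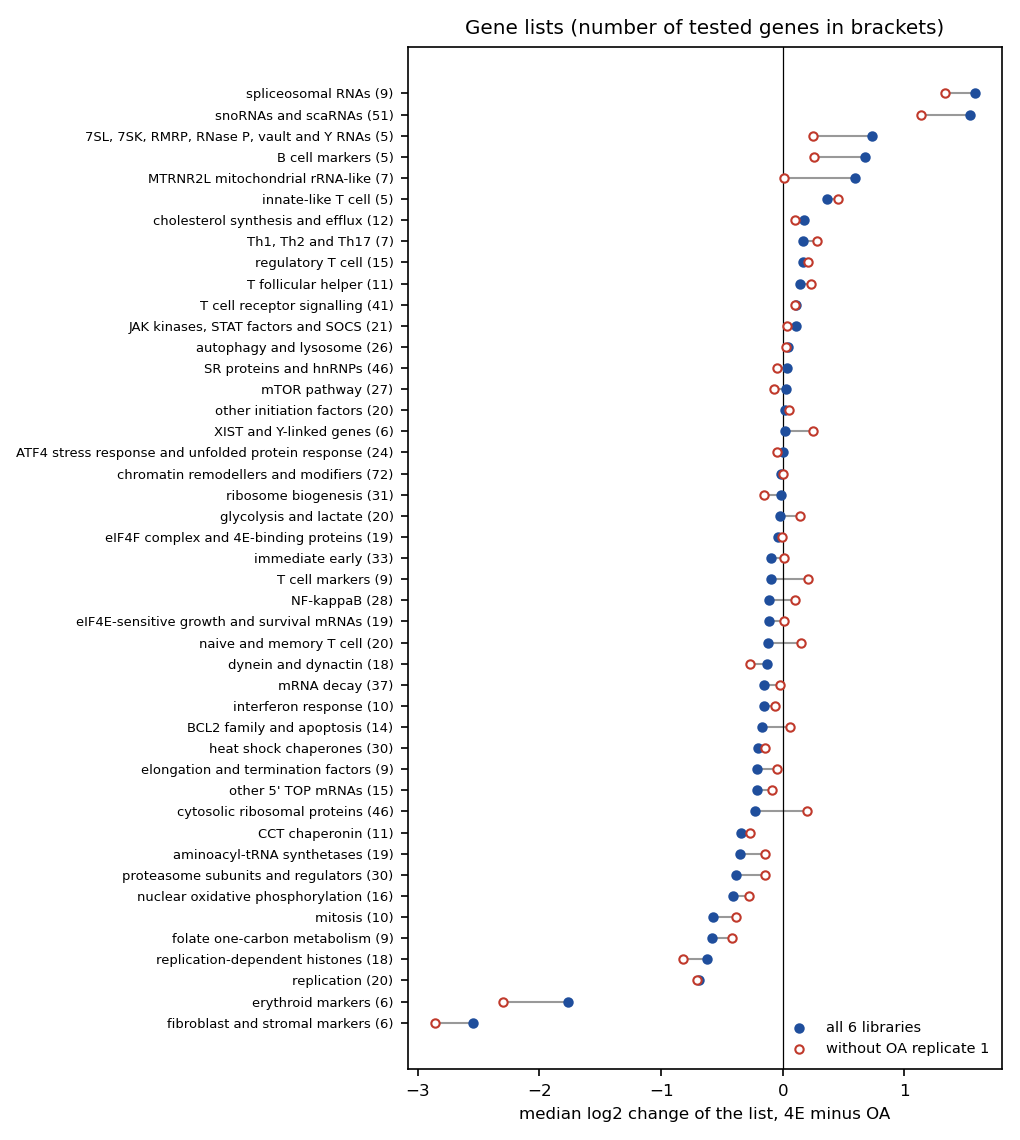
Median log2 change (4E minus OA) of each gene list with at least 5 tested genes, with all 6 libraries (filled) and without OA replicate 1 (open). Small RNA lists lie on the right and stromal, erythroid, replication and histone lists on the left, and ribosomal proteins cross 0 when that library is left out.

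The CCT chaperonin folds actin and tubulin and receives them from prefoldin. All 11 tested members of the list, 8 CCT and 3 prefoldin subunits, were below 0 with and without OA replicate 1, with medians of -0.34 and -0.27. The median was -0.60 without OA replicate 2 and -0.53 without 4E replicate 1. CCT6A stood at 58.7, 42.5 and 40.1 CPM in OA and at 22.2, 18.8 and 12.1 CPM in 4E. Each OA value was well above each 4E value, and the log2 change was -1.42 (SE 0.35; edgeR adjusted p 0.344). CCT4 had -1.02 (SE 0.33) and TCP1 had -0.71 (SE 0.30), while the remaining members lay between -0.63 and -0.10.

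The proteasome degrades ubiquitin-tagged proteins. Of 30 tested subunits and regulators 22 were below 0, 5 with an unadjusted p under 0.05, and the median moved from -0.39 to -0.14 when OA replicate 1 was left out. PSMA1, a subunit of the outer ring, stood at 18.6, 15.4 and 12.1 CPM in OA and at 1.17, 3.77 and 6.05 CPM in 4E. The groups were apart and the change was -2.08 (SE 0.62), but the 4E values rest on few counts. PSMA1 passed the filter only through the OA libraries, so its direction was largely set by the filter. PSMB4, of the inner ring, had -1.81 (SE 0.52), and PSMA5 had -1.66 (SE 0.56). The summed proteasome level overlapped between groups, at 688 to 1145 CPM in OA and 653 to 750 CPM in 4E.

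In the heat shock list CDC37, a partner of HSP90 for kinases, had 0.90 (SE 0.34), and HSPA5, the chaperone of the endoplasmic reticulum, had -0.52 (SE 0.22), from 939, 865 and 835 CPM in OA to 555, 616 and 676 CPM in 4E. PDIA3, a disulfide isomerase of the same compartment, had -1.54 (SE 0.44), but its list of stress response and unfolded protein response genes had 12 of 24 members on each side of 0. Aminoacyl-tRNA synthetases had a median of -0.35 over 19 tested members. That median lay between -0.10 and -0.17 when OA replicate 1, OA replicate 3 or 4E replicate 3 was left out. Nuclear genes of oxidative phosphorylation had -0.41 over 16, and between -0.21 and -0.25 without OA replicate 2, 4E replicate 1 or 4E replicate 2. Neither list had more than 1 member with an unadjusted p under 0.05.

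Genes of the eIF4F machinery, which the inhibitor addresses, had log2 changes on both sides of 0. EIF4G1, the scaffold, stood at 265, 220 and 213 CPM in OA and at 229, 232 and 219 CPM in 4E, with overlapping groups and a log2 change of -0.04 (SE 0.21). EIF4E was not tested, with 17, 0 and 2 counts in OA and 3, 0 and 1 in 4E, and EIF4EBP1, a repressor of eIF4E, had 2 counts in all. EIF4EBP2, its paralogue, had -0.37 (SE 0.42). The 19 tested members of the eIF4F list had a median of -0.04, with 9 above and 10 below 0. EIF4H, a cofactor of eIF4A, had 0.99 (SE 0.37), from 12.5, 19.9 and 19.6 CPM in OA to 26.8, 35.2 and 38.8 CPM in 4E without overlap. PABPC1, the poly(A) binding protein, had -0.56 (SE 0.22), from 668, 566 and 484 CPM in OA to 450, 338 and 374 CPM in 4E, also without overlap. EIF4G2, an eIF4G homologue that does not bind eIF4E, had -0.90 with all libraries and -0.29 without OA replicate 1, which alone stood at 1058 CPM.

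Messenger RNAs of ribosomal proteins begin with a terminal oligopyrimidine tract and are classic targets of mTOR and the 4E-binding proteins at the level of translation. Their RNA levels in these libraries had no stable direction. Of 46 tested, 31 were below 0 with all libraries, with a median of -0.23, and 35 were above 0 without OA replicate 1, with a median of 0.20. RPL35 was higher in each 4E library, at 21.4, 53.4 and 44.8 CPM in OA and 100.3, 117 and 60.5 CPM in 4E, a log2 change of 1.26 (SE 0.36). RPL11 was lower in each, at 247, 233 and 152 CPM in OA and 141, 124 and 114 CPM in 4E, a change of -0.74 (SE 0.24). RPL30 shows the dependence on a single library: it stood at 316 CPM in OA replicate 1 and at 80.5 and 66.3 CPM in the other OA libraries, and its change went from -1.43 to -0.33 without the former. The other mRNAs with such a tract had a median of -0.21 (-0.09 without OA replicate 1). EEF2K, the kinase that inhibits elongation, had 63 counts over the OA libraries and 2 over the 4E libraries, a ratio of 12.2 with a 95% counting interval of 3.23 to 103. EEF2K passed the filter only through the OA libraries.

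Among genes of T cell identity, ZBTB16 stood out. It encodes PLZF, the transcription factor of natural killer T and other innate-like T cells. ZBTB16 stood at 21.4, 25.3 and 33.6 CPM in OA and at 78.1, 70.4 and 72.7 CPM in 4E. The groups were far apart and each was tight, at 26.8 ± 6.21 and 73.7 ± 3.99 CPM (SD, n = 3 each), with a log2 change of 1.49 (SE 0.29). Its edgeR adjusted p was 0.111 with all libraries, 0.0420 without OA replicate 1 and 0.021 without OA replicate 3, and DESeq2 gave 0.0167. In the authors' deposited table ZBTB16 has a log2 fold change of 1.48 and an adjusted p of 0.363. ID2, another regulator of innate-like lymphocytes, had 0.96 (SE 0.42) with overlapping groups, as OA replicate 3 stood at 48.5 CPM and 4E replicate 2 at 41.5 CPM. Of the 5 tested members of the innate-like list, 3 were above and 2 below 0.

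T follicular helper (TFH) cells help B cells in germinal centres and are driven by BCL6. BCL6 stood at 57.3, 39.8 and 40.1 CPM in OA and at 22.2, 35.2 and 36.3 CPM in 4E. Its groups did not overlap, yet its log2 change of -0.57 (SE 0.32) had an unadjusted edgeR p of 0.094. The TFH list did not have a common direction: of 11 tested genes, BCL6 included, 6 were above and 5 below 0, with a median of 0.14 (0.23 without OA replicate 1). LEF1, a transcription factor of early TFH and naive cells, was higher in each 4E library, at 169, 160 and 162 CPM in OA and 244, 227 and 247 CPM in 4E, a change of 0.54 (SE 0.20; edgeR adjusted p 0.423). TCF7, its relative, had -0.11 with all libraries and 0.23 without OA replicate 1. CXCR5 had 41, 6 and 4 counts in OA and 1, 3 and 0 in 4E, most of them from OA replicate 1, and PDCD1 was listed at 0 in all 6 libraries, as abundant genes such as RPS29 were. ICOS had 6 counts and IL21 had 3 in all, so these defining TFH genes were not compared.

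FOXP3, the factor of regulatory T cells, had 0.45 (SE 0.34) with overlapping groups, and its list had a median of 0.16 with 10 of 15 above 0. NT5E, the ecto-enzyme CD73, had -1.65 (SE 0.60), from 16.3, 9.05 and 12.1 CPM in OA to 4.66, 3.77 and 3.63 CPM in 4E without overlap. NT5E passed the filter only through the OA libraries. RUNX3, a factor of Th1 and cytotoxic cells, had 1.10 (SE 0.37), from 13.4, 14.5 and 23.3 CPM in OA to 38.5, 38.9 and 30.3 CPM in 4E. T cell receptor signalling genes had a median of 0.11, with 23 of 41 above 0. CD28, the costimulatory receptor, had -1.29 (SE 0.57) at levels of 3.77 to 22.2 CPM. STAT5A, which relays interleukin 2, had 0.76 (SE 0.27), and JAK2, a cytokine receptor kinase, had -0.63 (SE 0.25), each without overlap of the groups.

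**Figure D4:**
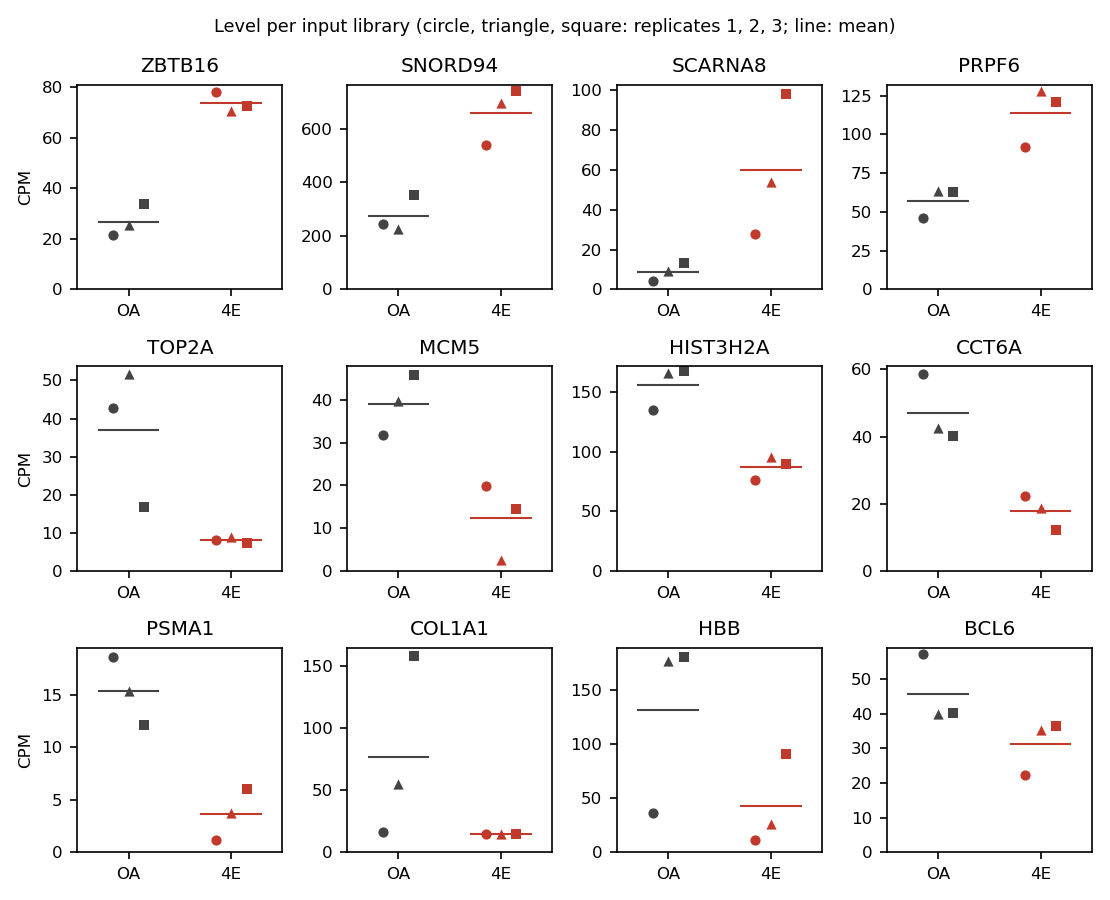
Level (CPM after TMM scaling, linear axes from 0) of 12 genes in each of the 6 input libraries, with OA in grey and 4E in red and the mean as a line. ZBTB16 and the small RNAs SNORD94 and SCARNA8 are higher in every 4E library, TOP2A, MCM5, HIST3H2A and CCT6A are lower in every 4E library, and HBB overlaps.

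Immediate early genes, which respond within minutes to stimulation and to tissue handling, rested on OA replicate 1. Of 33 tested, 22 were below 0 with all libraries and 16 without that library, and the median went from -0.09 to 0.01. DUSP1, a phosphatase of MAP kinases, stood at 403 CPM in OA replicate 1, 182 and 204 CPM in the other OA libraries and 182, 127 and 133 CPM in 4E. EGR1 and KLF6, transcription factors of the same response, had -0.81 and -0.87 with all libraries and -0.32 and -0.36 without OA replicate 1. TNFAIP3, a brake on NF-kappaB, went from -0.70 to -0.32 in the same way. MYC stood at 45.0, 90.5 and 110 CPM in OA and at 111, 129 and 99.3 CPM in 4E, and its change of 0.49 (SE 0.31) was 0.16 without that library.

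Among regulators of RNA and chromatin, the lists had medians near 0 and single members differed. PRPF6, a protein of the U4, U5 and U6 particle, stood at 46.2, 63.3 and 62.6 CPM in OA and at 92.1, 128 and 121 CPM in 4E, a change of 1.0 (SE 0.25; edgeR adjusted p 0.344). It was higher in each 4E library, as was RNU5B-1, an RNA of that particle. SRSF6, a splicing factor, had -0.83 (SE 0.26), from 114, 120 and 87.8 CPM in OA to 77.0, 50.3 and 54.5 CPM in 4E. KDM6B, which removes methyl groups from histone H3, was higher in each 4E library, at 483, 537 and 689 CPM in OA and 918, 833 and 894 CPM in 4E, a change of 0.63 (SE 0.23). HDAC2, a histone deacetylase, had -1.33 (SE 0.53). SMG5, a factor of nonsense-mediated decay, had -0.84 (SE 0.30) without overlap. ACTR1B, a subunit of dynactin, had the tightest groups of these genes, at 29.7, 31.7 and 31.7 CPM in OA and 57.1, 59.0 and 63.0 CPM in 4E, a change of 0.95 (SE 0.27; edgeR adjusted p 0.344).

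Some stromal and erythroid markers were among the genes with the lowest log2 changes. Markers of other cell types were not lower as a whole. Above 0 were 4 of 5 tested B cell markers and 3 of 3 plasma cell markers. So were 1 of 2 tested monocyte, macrophage and dendritic markers and the 1 tested platelet marker. Of the 20 fibroblast and stromal markers 6 were tested and all 6 were below 0. COL3A1 and FN1, with 2 and 3 counts over the 4E libraries, could pass the filter only through OA, so their direction was set by it. The summed level of the list was 275, 344 and 591 CPM in OA and 265, 226 and 220 CPM in 4E. That sum takes in VIM and THY1, which T cells also express, so it does not measure stromal RNA. COL3A1, a fibrillar collagen, had 145 counts over the OA libraries and 2 over the 4E libraries, a ratio of 28 with a 95% counting interval of 7.61 to 233. COL1A1, of the same fibres, stood at 16.5, 55.2 and 158 CPM in OA and at 15.2, 15.1 and 14.5 CPM in 4E. OA replicate 1 lay next to the 4E libraries and OA replicate 3 was the highest. The change of -2.31 (SE 0.63) was -2.83 without OA replicate 1, with an edgeR adjusted p of 0.00027, and -1.20 without OA replicate 3. The median of the stromal markers, -2.55 with all libraries, moved to -1.57 without OA replicate 3. Of the erythroid markers 6 were tested and all were below 0, with a median of -1.76. Without OA replicate 1 the median was -2.30, with 5 below and 1 above 0. Their summed level was 144, 533 and 401 CPM in OA and 91.0, 131 and 223 CPM in 4E, so the groups overlapped through OA replicate 1. HBB, beta globin, stood at 36.1, 177 and 181 CPM in OA and at 11.7, 26.4 and 90.8 CPM in 4E, so the groups overlapped through OA replicate 1. ANK1 and SPTB, of the red cell membrane skeleton, had -2.19 (SE 0.68) and -1.94 (SE 0.70), and both passed without OA replicate 1 (edgeR adjusted p 0.0029 each). The cells had been sorted as CD4+CD45+, a gate that is meant to leave out fibroblasts and red cells. The part that RNA of such cells had in other differences was not tested.

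The remaining genes named by their rank were few. HMGA2, a DNA-binding chromatin protein, had 2.64 (SE 0.68), from 4.01, 0 and 7.47 CPM in OA to 12.8, 32.7 and 27.9 CPM in 4E, and DESeq2 called it. PPP2R4, an activator of phosphatase 2A, stood at 28, 39.8 and 36.4 CPM in OA and at 15.2, 7.54 and 8.48 CPM in 4E, a change of -1.71 (SE 0.41). NDFIP1, an adaptor for ubiquitin ligases that restrains T cell activation, stood at 79.4, 48.9 and 52.3 CPM in OA and at 30.3, 28.9 and 24.2 CPM in 4E, a change of -1.13 (SE 0.31). Both were lower in each 4E library. ANKRD10 had -2.0 (SE 0.55), and ARHGAP23 had 51 counts over the OA libraries and 1 over the 4E libraries, a ratio of 19.7 with a 95% counting interval of 3.38 to 793. ARHGAP23 passed the filter only through the OA libraries.

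Log2 changes also varied with base composition. A mouse coding transcript of the same name was found for 91.9% of tested genes, and the 4274 genes were split into 4 groups of equal size by GC content. The median log2 change was -0.20 in the group of lowest GC content (up to 45.6%), then -0.06 and 0.03, and 0.10 in the group of highest GC content (from 55.2%). Of the lowest group 64.1% of genes were below 0, and of the highest group 40.9%. The same order held without OA replicate 1, with medians from -0.06 to 0.05, and without OA replicate 3, with medians from -0.27 to 0.15. Medians by transcript length lay between -0.05 and -0.01. The part of base composition in the gene group differences was not tested.

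**Figure D5:**
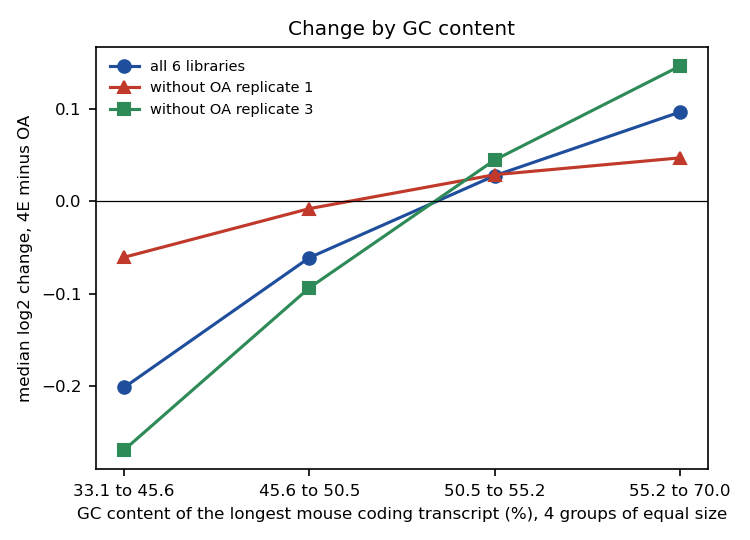
Median log2 change (4E minus OA) of tested genes in 4 groups of equal size by transcript GC content (%), with all libraries and without OA replicate 1 or 3. In each fit the median increases from the group of lowest GC content to that of highest, from -0.20 to 0.10 with all libraries.

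The authors' deposited table gives log2 fold changes and p-values for the same comparison. The lowest adjusted p in that table is 0.363, and 904 of 11224 genes have a p under 0.05. Of the 453 genes with an unadjusted edgeR p under 0.05, all 453 have the same sign in the authors' deposited table, which was made from the same libraries. It lists TOP2A at -1.96, CCT6A at -1.39, PRPF6 at 0.99 and COL3A1 at -4.68, in the authors' deposited table's own log2 units.

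The heavy polysome libraries of the series, which hold RNA bound by several ribosomes, were not part of the comparison, and their values are given for the 12 genes of the plot by library, which were chosen after their input values were seen. Of the 11 whose input groups did not overlap, 7 were apart in the same direction in the heavy libraries, 4 overlapped there and 0 were apart in the other direction. The share of all genes that lay apart in the heavy libraries was not counted. These counts thus have no background and are not read as a result. ZBTB16 stood at 73.8, 116 and 125 CPM in heavy OA and at 154, 140 and 219 CPM in heavy 4E. TOP2A stood at 134, 63.4 and 76.2 CPM in heavy OA and at 9.75, 13 and 41 CPM in heavy 4E. BCL6 stood at 167, 141 and 136 CPM in heavy OA and at 83.4, 89.2 and 113 CPM in heavy 4E. Those groups did not overlap, whereas PRPF6, CCT6A, PSMA1 and SCARNA8 overlapped. The heavy libraries may share animals with the input libraries, so they are no independent repeat.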

How the data were processed

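The deposited values are raw read counts, whole numbers with a row for each gene symbol and a column for each library. The submitters' processing notes name Bowtie and the build mm9, without saying how they were used. How reads were counted, on which annotation and with which strand setting is not stated in the labels or headers, and no coordinates are printed. Symbols are in the human style, 4322 of 4640 tested symbols that are not dates match a mouse symbol, and 28 rows turned into dates are never named. Reads in no gene or ambiguous, 19.1% to 28.5% of all reads, were left out. The authors' deposited table of log2 fold changes and p-values was copied and entered no test.

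The counts of the 6 input libraries were scaled with TMM and tested with edgeR 4.0.16 in R 4.3.3 (glmQLFit and glmQLFTest, 2 group means, no covariate), for genes that reached 10 counts in 3 or more libraries, with Benjamini-Hochberg adjustment and a threshold of 0.05. The script was tested on simulated data. DESeq2 1.42.0 and limma 3.58.1 served as alternatives. Levels are CPM after scaling. A gene under 10 counts in every library of a group could pass the filter only through the other group, so its direction was largely set by the filter. COL3A1, FN1, EEF2K, ARHGAP23, TOP2A, PSMA1 and NT5E were such genes, and their direction alone is no support for a difference. SNORA46 and SNORA28 likewise could not pass without the 4E libraries. A count of 0 allows up to 3 counts, or 0.707 to 3.77 CPM, but only for rows that the counting could fill: some rows of abundant genes are at 0 throughout. Intervals and floors cover counting error only. The intervals pool the reads of a group and leave out variation between its libraries. No gene with such an interval was called with all 6 libraries. Near-identical copies (histone, ribosomal protein, 7SL, U4, U5 genes) and overlapping or antisense genes are uncertain. Shares of reads were compared by exact two-sided permutation tests, which cannot go below 0.1 with 3 against 3.

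The gene lists, the rule for named genes and the comparison itself were chosen with earlier results of these data known. Named are the 10 genes of smallest p in each direction whose groups do not overlap, the 2 of smallest p in each list with 5 or more tested genes and other list members with an unadjusted p under 0.05, and a set of translation and T cell genes whatever their values. Members of lists that were named for completeness of a complex or as hosts of small RNAs were chosen after their values were seen. Host genes, small RNA sequences and GC content come from GENCODE M21 (GRCm38), matched by name. Results of some genes that the rule names are not reported here.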

Additional observations from a re-analysis of the deposited data

Results flagged for a closer look

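The share of reads in no annotated gene, which entered no test of genes, differed between the groups. It was 18.7% to 19.1% of all reads in the OA libraries and 23.8% to 26.6% in the 4E libraries, a difference of 6.17 percentage points, with an exact two-sided permutation p of 0.1, the smallest that 3 against 3 libraries allow. OA replicate 1, which stood apart in its small RNA share, did not stand apart here. The share of ambiguous reads was 0.384% to 0.669% in OA and 0.674% to 1.91% in 4E, a difference of 0.562 percentage points (exact permutation p 0.1), and 4E replicate 3 set most of it. What these reads held was not tested.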

How the results depend on the processing

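The count of genes called was 0 with all 6 libraries and edgeR's quasi-likelihood test. It was also 0 with DESeq2 size factors, without composition scaling, without the small RNA rows, with at least 50 counts and in a fit of all 12 libraries, 12 with DESeq2, 2 with limma voom and 85 with no filter, of which 77 were among the genes tested and 43 were small RNAs. Leaving out 1 library at a time gave 0 to 32. With the replicate number as a block 32 genes were called, of which 26 were small RNAs. The numbers missed the rule for pairing only narrowly. Deviations of same-numbered libraries correlated at 0.164, 0.0955 and 0.0627, and OA replicate 3 correlated best with 4E replicate 2 (0.0629). The remaining pairs had correlations from -0.134 to -0.0199. Whether libraries of the same number belong together cannot be told from these values, so the count of 0 holds for the fit without a block.

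Library sizes alone, without composition scaling, shifted the median of all genes to -0.80, and with that shift the log2 changes of FOXP3 (-0.31), KDM6B (-0.077), LEF1 (-0.24), LIG1 (-0.34), MYC (-0.10) and SLBP (-0.31) turned below 0; relative to the shift they stayed above. With limma voom EIF4G1 (0.035), RPL23 (0.15) and TCF7 (0.12) turned above 0, as they did without OA replicate 1 (0.054, 0.62 and 0.23; RPL23 ranged from -1.50 to 0.62 with 1 library left out), and LIG1 was at -0.20 without 4E replicate 3; the cause was not tested. RNU12, RNU2-2P and RNU4ATAC turned above 0 with limma voom (0.79, 0.037 and 0.28), RNU12 and RNU4ATAC also with the replicate block (0.14 and 0.058), and with 1 library left out they ranged from -0.89 to 0.90, from -1.56 to 0.36 and from -0.70 to 1.07. Of 45 list medians, 19 kept their sign under all 15 alternatives where they gave a value, among them the snoRNA (0.95 to 2.25), replication (-1.45 to -0.56), histone (-1.38 to -0.48), CCT (-1.22 to -0.27), stromal (-2.98 to -1.57) and erythroid (-2.40 to -1.19) lists. Ribosomal proteins turned above 0 with limma voom and without OA replicate 1 (0.20 at most). With at least 50 counts the oxidative phosphorylation median was -0.00091. With limma voom the mitosis and proteasome medians were -0.25 and -0.17. The library size limits what could be compared: a count of 0 allows up to 3.77 CPM in the shallowest library after scaling.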

Other observations

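The 7 tested MTRNR2L rows, whose symbols are those of human copies of mitochondrial ribosomal RNA, were all above 0 with a median log2 change of 0.59, and had a median of 0.01 without OA replicate 1. XIST, the RNA of the inactive X chromosome, stood at 38.9, 88.7 and 122 CPM in OA and at 108, 160 and 236 CPM in 4E, a log2 change of 1.05 (SE 0.37) with overlapping groups. DDX3Y, a Y-linked helicase with a close copy on the X chromosome, stood at 117, 147 and 117 CPM in OA and at 88.6, 94.2 and 105 CPM in 4E, so reads of both rows were present in each library. With the replicate block (edgeR adjusted p 0.041) and with no filter, XIST was called. Of the 6 tested members of the list of XIST and Y-linked genes 3 were above and 3 below 0. In each direction 1 was apart, DDX3Y being the lower, and the median was 0.02. The list mixes XIST with Y-linked genes, so its median is not read as a direction. The labels used here give no sex. The naive and memory T cell list had a median of -0.12 with all libraries and 0.15 without OA replicate 1. B cell markers had 4 of 5 tested members above 0, with a median of 0.67, or 0.22 to 1.05 with 1 library left out.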
